A study of Homo sapiens with 3 samples.

Results

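The genes that copy DNA and supply its deoxynucleotides were followed in SupB15, a human B-cell precursor acute lymphoblastic leukemia cell line, and in its multidrug resistant derivative SupB15-MR. The group has 56 genes, chosen for their role in replication, with earlier results of these data known. They are read by 104 of the 54675 probe sets of the array. A probe set was taken where the platform table gives it to 1 member alone, under a current or an earlier symbol; 4 further probe sets, which read PRIM2 together with a pseudogene, were left out. SupB15 (1 array, labelled drug sensitive) and SupB15-MR (2 arrays, labelled multiple drug resistant) were both grown in RPMI1640 with serum and without drug at the time of the arrays. According to the methods, SupB15-MR arose from SupB15 cells that were kept in medium conditioned by the bone marrow stromal line HS-5, exposed to mitoxantrone and then returned to drug-free medium, so that it is a survivor population and not an engineered line. The labels name the cells of the second SupB15-MR array as SupB15-MR5 and give no clone for the first. The legends of the study describe the SupB15-MR arrays as separate clones. The p-values thus rest on the spread between 2 clones, pooled over probe sets by the variance prior. With 1 array, SupB15 gives no spread of its own.

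Replication starts where the origin recognition complex, with CDC6 and CDT1, loads the MCM helicase onto DNA. The kinase of CDC7 and DBF4 then allows CDC45 and the GINS complex to join the helicase, and DNA is unwound. Polymerase alpha with its primase starts each stretch, and the polymerases delta and epsilon extend it, held on the template by PCNA, a sliding clamp that replication factor C (RFC) places on DNA. The RPA complex covers the exposed single strand, FEN1, DNA2 and LIG1 trim and join the Okazaki fragments, and ribonucleotide reductase and the salvage kinases provide the deoxynucleotides. Many of these genes are transcribed at the entry into S phase under E2F factors, and leukemia cells in culture express them strongly.

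The promoters of the members share short words that fit E2F, which makes their sequence a useful reference for what follows. RefSeq promoter windows (GRCh38.p14, 250 bases before to 50 bases after each start) were at hand for 49 of the 56 members. The search used TTTGGCG as the first E2F word, TTTCGCG as the second, TTTCCCG as the third and TTTGCCG as the last, each read on both strands (the end of TTTCCCG can share letters with the GC box below). At least 1 of them stood in the window of 28 of these 49 genes (57.1%). It stood in 2832 of all 27305 genes with a window (10.4%), and in 13.4% of the protein-coding ones. A word is a match of letters and not evidence of a bound factor. The place of the words was looked at only for the 18 genes plotted below with their values in every array. Other members named below may also carry a word before the start. The 120 bases before the start are shown for the 5 of these 18 genes that carry a whole word there. They are CDC6 and GMNN at the licensing step and POLE, PCNA and LIG1 at the fork. Each sequence runs 5′ to 3′ on the strand of its gene, and the capitals mark the word or its reverse complement. The regions are chr17:40287759-40287878 on the plus strand for CDC6, chr6:24775293-24775412 on the plus strand for GMNN, chr12:132687343-132687462 on the minus strand for POLE, chr20:5126623-5126742 on the minus strand for PCNA and chr19:48170345-48170464 on the minus strand for LIG1.
CDC6: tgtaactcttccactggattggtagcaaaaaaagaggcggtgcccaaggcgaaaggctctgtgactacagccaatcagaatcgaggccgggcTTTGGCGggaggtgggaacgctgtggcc
GMNN: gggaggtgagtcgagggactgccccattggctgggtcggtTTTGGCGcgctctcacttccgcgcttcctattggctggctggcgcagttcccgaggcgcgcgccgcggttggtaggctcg
POLE: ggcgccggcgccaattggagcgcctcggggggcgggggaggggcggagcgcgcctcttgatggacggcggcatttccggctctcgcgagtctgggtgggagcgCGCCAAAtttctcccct
PCNA: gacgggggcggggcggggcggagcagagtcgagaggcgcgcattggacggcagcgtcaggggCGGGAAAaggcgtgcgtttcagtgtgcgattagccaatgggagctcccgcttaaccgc
LIG1: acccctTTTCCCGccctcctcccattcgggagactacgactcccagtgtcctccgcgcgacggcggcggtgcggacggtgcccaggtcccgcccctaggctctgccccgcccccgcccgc
POLE, PCNA and LIG1 were lower in SupB15-MR, while CDC6 and GMNN did not pass the thresholds, so that genes with a word of this kind were found on either side. Of the members with a window, a word was held by 6 of the 11 that were lower, by 2 of the 4 that were higher and by 20 of the 34 that were not called. The GC box GGGCGG stood in 39 of the 49 windows (79.6%, against 48.3% of all genes and 64.3% of the protein-coding ones). The CCAAT box stood in 30 of the 49 (61.2%, against 39.7% of all genes and 42.1% of the protein-coding ones). Here the members differed among themselves, with 3 of 11 lower, 24 of 34 not called and 3 of 4 higher members holding the CCAAT box. These shares are a description and carry no test.

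The replication genes were expressed in both lines, and most of them differed by less than 2-fold. Values are log2 expression values, so that a difference of 1 is 2-fold, and each gene stands as its probe set with the highest average of the SupB15 value and the SupB15-MR mean. All 104 probe sets passed the filter on low values, and all 56 representative probe sets lay above the median of the array in all 3 arrays. Their median was 9.41 in SupB15, 9.13 in SupB15-MR replicate 1 and 9.20 in replicate 2. A gene was called when its adjusted p from limma, corrected over all 46034 probe sets tested, was at most 0.05 and its difference at least 2-fold. Every probe set at least 2-fold apart also passed the adjusted p, so that a call amounts to a mean difference of at least 2-fold.

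Of the 56 genes, 4 were higher in SupB15-MR, 13 were lower and 39 were not called. The lower genes were ORC5, MCM5, GINS3, POLA2, POLD1, POLE, POLE3, PCNA, RPA3, LIG1, TK1, DCK and DBF4, and the higher ones MCM8, MCM10, FEN1 and TIMELESS. Calls were common on these arrays. Over all 17526 genes tested, 32.1% were called, 15.8% higher and 16.3% lower. The share of called members was therefore near that of all genes, with more members lower than higher. The median difference of the members was -0.18, against 0 for all genes. It was -0.30 in replicate 1 alone, -0.37 with the probe set brightest in SupB15 and -0.0725 with the median over probe sets. After centring of the arrays it was -0.38, but centring lowers every difference by the same 0.19, that of all genes included. Over the 104 member probe sets the median was -0.0136, against 0 for all probe sets. By probe sets, 33 of 104 were called (31.7%, against 35.8% of all probe sets), 12 of them higher (11.5%, against 19.6%) and 21 lower (20.2%, against 16.2%). Counting only the probe sets that reached 2-fold in replicate 1 and again in replicate 2, 11 member probe sets were higher and 17 lower. Over all probe sets, 33.2% did so (18.3% higher and 15% lower). With limma's usual variance prior, which the identical values described below pull toward 0, 8 member probe sets were higher and 11 lower, where 22.8% of all were called (13.1% higher and 9.71% lower).

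**Figure D1:**
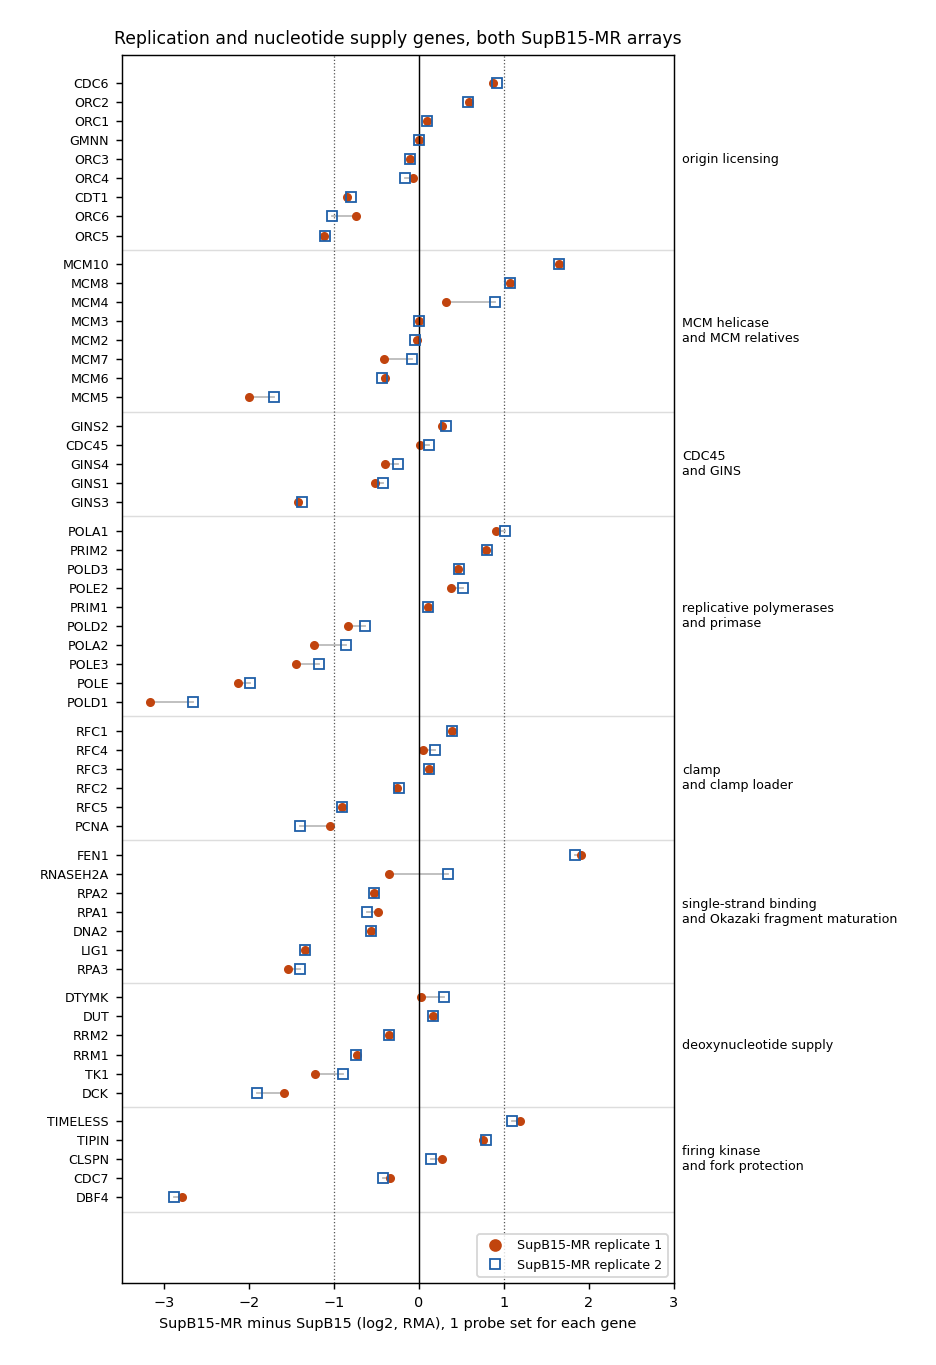
Difference of each SupB15-MR array from the SupB15 array for the 56 genes, by role (x axis, log2 scale; filled circles, replicate 1; open squares, replicate 2; dotted lines, 2-fold). Most genes lie between the dotted lines; POLD1, DBF4 and POLE lie farthest to the left, at -2.91, -2.83 and -2.06 on average, and FEN1 and MCM10 farthest to the right, at 1.87 and 1.65.

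Facts of the whole arrays bear on every value. The array medians were 5.08 for SupB15, 5.27 for replicate 1 and 5.28 for replicate 2 of SupB15-MR, which makes a shift of 0.19. After each array was centred on its median, 2 members were called higher and 16 lower, in place of 4 and 13, and no member changed direction between higher and lower calls. By probe sets, 9 of the members were then higher and 25 lower, in place of 12 and 21. The whole array shifted the same way, with 7500 probe sets higher and 9001 lower, in place of 9005 and 7471. Both SupB15-MR arrays held identical values for 42.7% of all probe sets and for 35 of the 104 member probe sets (33.7%), so that no spread was measured for these and their p-values, among them those of MCM8, MCM10 and LIG1, rest on the prior alone. Of the member probe sets, 6 differed by more than 0.5 between the SupB15-MR arrays (5.77%, against 5.11% of those tested). The control probe sets for 18S ribosomal RNA were 6.57 to 7.84 higher in SupB15-MR, and the 3′ minus 5′ difference of the ACTB control was 0.80 for SupB15 against 2.59 and 2.43 for SupB15-MR, while that of GAPDH was 0.10, -0.09 and -0.11. The GAPDH control probe sets themselves differed by -1.976 to -1.125 between SupB15-MR and SupB15. Those of the 5′ and middle parts of ACTB differed by -1.766 to -0.927, and that of its 3′ part by 0.016 and 0.005. The part of RNA input and transcript integrity in the differences was not tested. Of 9 B-cell precursor markers measured, 9 lay above the array median in SupB15 and 8 in both SupB15-MR arrays, with 3 lower in SupB15-MR (EBF1, VPREB1 and IGLL1). DNTT, the polymerase that marks lymphoid precursors, was at 13.16, 13.37 and 13.37. Other probe sets of these genes disagreed, with differences from -2.93 to 1.94 for EBF1 and from -0.39 to 4.56 for DNTT. Of the 34 probe sets of these markers, 14 were called higher (41.2%, against 19.6% of all) and 8 lower (23.5%, against 16.2%). The log2 summed level of 7 stromal markers was 11.47 for SupB15 against 8.05 and 7.95 for SupB15-MR, with 3 of the 7 called lower. These were COL6A3 (11.17 in SupB15, 2.91 and 3.31 in SupB15-MR), THY1 (a difference of -3.22) and DCN (-1.10), while COL1A2 was at 3.79 in all 3 arrays. That of 5 myeloid markers was 7.67, 8.56 and 7.85, that of 6 T-cell markers 7.39, 6.976 and 7.002, and that of 3 erythroid markers 8.22, 7.07 and 7.27. No marker is at 0 on this scale, and the part of other cells in the replication genes was not tested.

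Of the 9 genes of the first step, origin licensing, 0 were higher and 1 was lower, with a median difference of -0.11 (0 for all genes), and several lay just under 2-fold in either direction. The gene counts of this and the following roles stand beside 15.8% higher and 16.3% lower over all genes tested, and no role was tested against them. CDC6, the loader that brings the helicase to the origin, was at 9.15 in SupB15 and at 10.03 and 10.07 in SupB15-MR. The difference of 0.89 had an adjusted p of 0.0008 but was under 2-fold. Its other probe set went the opposite way, from 8.71 to 7.86 in both SupB15-MR arrays, a difference of -0.85, so that no direction can be given for CDC6. GMNN, the inhibitor of CDT1 that prevents a second round of licensing, was at 10.14 in all 3 arrays. The member called lower was ORC5, a subunit of the origin recognition complex, whose values are given because it was called and which was chosen after they were seen. ORC5 was at 8.40 in SupB15 and at 7.28 and 7.29 in SupB15-MR (difference -1.12), while its other probe sets differed by 0.05 and 0.72. CDT1, the other helicase loader, was called on 1 of its probe sets (-1.22) and differed by -0.83 on the brighter one that represents it. The other subunits, ORC1, ORC2, ORC3, ORC4 and ORC6, lay between -0.89 and 0.58 on their representative probe sets.

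The genes named MCM fell into the subunits of the helicase ring, MCM2 to MCM7, and those outside it. The latter are MCM8, which acts in recombination repair, and MCM10, which helps to activate the helicase. Of the 8, 2 were higher and 1 was lower, and both higher ones lay outside the ring. MCM2 was at 10.91, 10.88 and 10.86, a difference of -0.04 with an adjusted p of 0.991. MCM3 was at 10.83 in all 3 arrays. MCM8 rose on both of its probe sets. On the brighter one it was at 8.44 in SupB15 and at 9.51 in each SupB15-MR array, a difference of 1.07 (standard error 0.20, adjusted p = 0.000148), and 0.87 after centring of the arrays, under 2-fold. On the other it was at 5.55 in SupB15 and at 9.15 in each SupB15-MR array, a difference of 3.60. MCM10 was at 8.56 in SupB15 and at 10.21 in each SupB15-MR array, a difference of 1.65 (adjusted p = 9.5e-07). Its other probe sets differed by -0.47 and -0.50, and MCM10 is negative where either the median over its probe sets or the probe set brightest in SupB15 stands for it.

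The probe sets of the ring subunits themselves often disagreed, and the following were chosen after their values were seen. MCM5 was the subunit called lower, at 10.06 in SupB15 and at 8.06 and 8.35 in SupB15-MR (difference -1.85; adjusted p = 0.0712 with the usual prior, not called), and its other probe set differed by 0.28. MCM7 differed by -0.25 on the probe set that represents it and by -2.51 on the other, which was at 11.36 in SupB15 and at 8.55 and 9.14 in SupB15-MR. MCM4 had 5 probe sets with differences from 0.02 to 2.71, of which 2 were called higher, at 2.53 and 2.71. On 3 of them replicate 2 was higher than replicate 1, by 0.57, 0.54 and 0.56. MCM6 differed by -0.42 and 0.50 on its probe sets. On their representative probe sets, 1 of the 6 ring subunits was thus called.

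CDC45 and the 4 GINS genes complete the active helicase, and 1 of these 5 was lower. GINS3 fell on both of its probe sets. It was at 9.55 in SupB15 and at 8.13 and 8.17 in SupB15-MR on the brighter one, a difference of -1.40 (standard error 0.20, adjusted p = 7.26e-06). On the other it was at 9.07 in SupB15 and at 7.86 and 7.85 in SupB15-MR, a difference of -1.22. CDC45 differed by 0.06 on its probe set. The representative probe sets of GINS1, GINS2 and GINS4 lay between -0.48 and 0.29, and 1 of the 3 probe sets of GINS2 (1.24) and 1 of the 4 of GINS4 (1.06) were called higher.

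On the representative probe sets, the replicative polymerases held 2 of the 3 largest falls, with DBF4 as the other one. The MCM7 probe set at -2.51, which does not represent its gene, fell by more than POLE. Of the 10 genes of polymerase and primase subunits, 4 were lower and 0 were higher, with a median difference of -0.31. By probe sets, 6 of 13 were lower (46.2%, against 16.2% of all), and 3 of these 6 read POLA2. Only 3 of the 13 were lower by 2-fold in both SupB15-MR arrays (15% of all probe sets were). With the usual prior 1 of the 13 was called lower (9.71% of all were). POLD1, the catalytic subunit of polymerase delta, was at 8.61 in SupB15 and at 5.45 and 5.95 in SupB15-MR, a difference of -2.91 (standard error 0.23, adjusted p = 2.19e-09; 0.0786 with the usual prior, not called). POLE, the catalytic subunit of polymerase epsilon, was at 9.00 in SupB15 and at 6.86 and 7.01 in SupB15-MR, a difference of -2.06 (adjusted p = 5.96e-08). The catalytic subunits of both fork polymerases were thus lower in each SupB15-MR array, by more than the arrays differed from each other. POLE3, a histone-fold subunit of polymerase epsilon, was at 10.33 in SupB15 and at 8.88 and 9.14 in SupB15-MR, a difference of -1.31 (adjusted p = 2.22e-05; 0.0921 with the usual prior). POLD1, POLE and POLE3 have 1 probe set each, so that no other probe set checks them.

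The other polymerase subunits went several ways. POLA2, the accessory subunit of polymerase alpha, was called on all 3 of its probe sets, at -1.05, -1.03 and -1.02 (adjusted p of the first = 0.171 with the usual prior, not called). In replicate 2 these differences lay between -0.86 and -0.93, just under 2-fold. POLA1, the catalytic subunit of the same enzyme, differed by 0.96 in the opposite direction and was not called. The primase subunits differed by 0.11 (PRIM1) and 0.79 (PRIM2), the accessory subunits POLD3 and POLE2 by 0.46 and 0.45, and POLD2 by -0.74, none of them called.

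**Figure D2:**
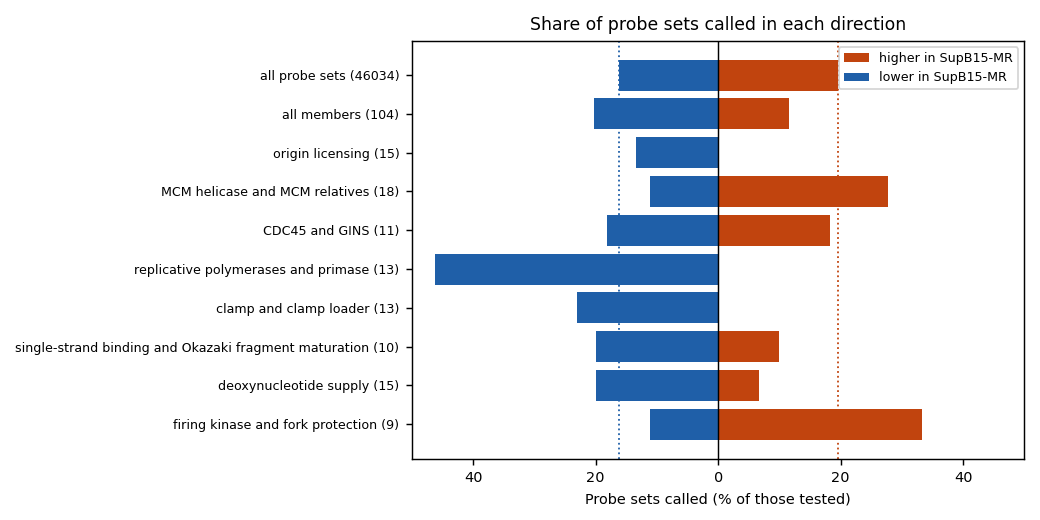
Percent of tested probe sets called higher (right, orange) or lower (left, blue) in SupB15-MR, for all probe sets, all members and each role, with the number of probe sets in parentheses; dotted lines mark the shares over all probe sets (19.6% and 16.2%). The polymerase and primase subunits have 46.2% lower (6 of 13, of which 3 read POLA2) and none higher. The MCM genes have 27.8% higher and 11.1% lower. The roles hold 9 to 18 probe sets each and were not tested.

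Among the clamp and its loader, 1 of 6 genes was lower and 0 were higher. PCNA, the sliding clamp, was at 12.49 in SupB15 and at 11.45 and 11.10 in SupB15-MR, a difference of -1.22 (standard error 0.21, adjusted p = 6.65e-05; 0.134 with the usual prior), on 1 probe set. Replicate 2 was the lower of the SupB15-MR arrays, and both lay more than 2-fold below SupB15. The 5 RFC genes, which open and load the clamp, lay between -0.90 and 0.39 on their representative probe sets. RFC1 and RFC3 each had 1 further probe set called lower (-1.40 and -1.17), beside probe sets of the same gene between -0.57 and 0.39.

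Single-strand binding and Okazaki fragment maturation went both ways, with 1 gene higher, 2 lower and 4 not called (median -0.55). RPA3, the small subunit of the single-strand binding complex, was at 9.72 in SupB15 and at 8.17 and 8.32 in SupB15-MR, a difference of -1.47 (adjusted p = 4.46e-06). RPA1 and RPA2, the other subunits, differed by -0.55 and -0.53 and were not called. LIG1, the ligase that seals Okazaki fragments, was at 10.05 in SupB15 and at 8.70 in each SupB15-MR array, a difference of -1.34 (adjusted p = 1.15e-05). FEN1, the flap nuclease that acts just before it, was at 10.25 in SupB15 and at 12.16 and 12.09 in SupB15-MR, a difference of 1.87 (standard error 0.20, adjusted p = 1.92e-07). Its other probe set was at 9.58 in SupB15 and at 8.95 and 9.06 in SupB15-MR, a difference of -0.57. The rise of FEN1 thus rests on 1 of its probe sets. DNA2, which trims long flaps, differed by -0.57. RNASEH2A, the catalytic subunit of the RNase H2 that removes ribonucleotides, was at 9.68 in SupB15 and at 9.33 and 10.02 in SupB15-MR, on either side of SupB15.

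**Figure D3:**
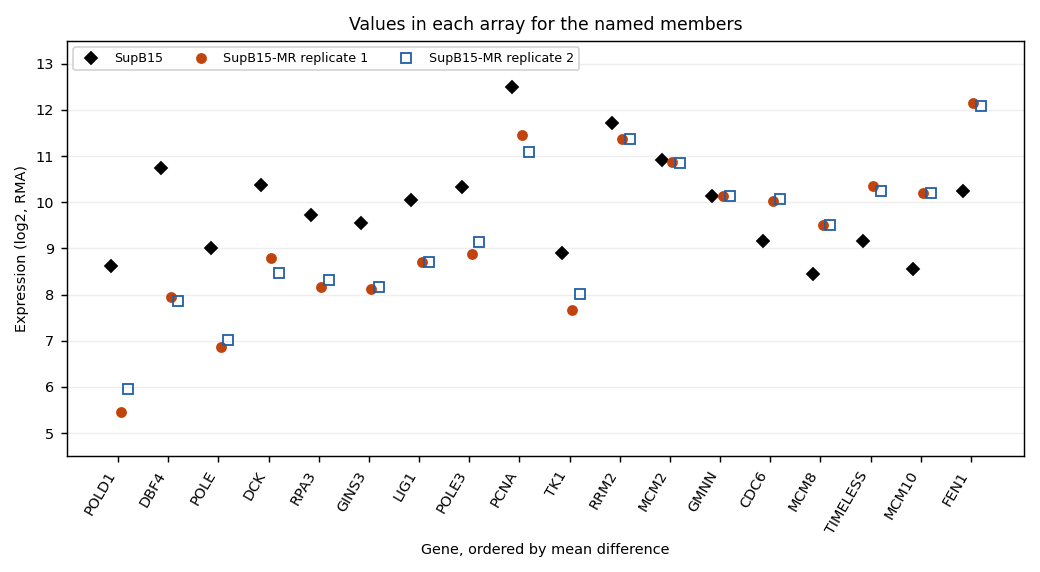
Expression (y axis, log2, RMA) in the SupB15 array (diamonds) and both SupB15-MR arrays (circles, replicate 1; squares, replicate 2) for the 18 genes given in every array, in order of mean difference. The SupB15 value lies above both SupB15-MR values from POLD1 to RRM2 and below both from CDC6 to FEN1, and the 3 values of MCM2 and of GMNN nearly coincide.

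In deoxynucleotide supply, the deoxynucleoside salvage kinases DCK and TK1 were lower and ribonucleotide reductase was not called. Of the 6 genes, 2 were lower and 0 were higher (median -0.54). DCK, which phosphorylates deoxycytidine and activates cytidine analogue drugs, was at 10.38 in SupB15 and at 8.80 and 8.48 in SupB15-MR, a difference of -1.75 (standard error 0.21, adjusted p = 8.74e-07; 0.0843 with the usual prior). TK1, the S phase thymidine kinase, fell on both of its probe sets. It was at 8.90 in SupB15 and at 7.67 and 8.005 in SupB15-MR on the brighter one, a difference of -1.06 (adjusted p = 0.000273; 0.147 with the usual prior), and -0.89 in replicate 2 alone, under 2-fold. On the other it was at 8.53 in SupB15 and at 7.41 in each SupB15-MR array, a difference of -1.12. RRM2, the small subunit of ribonucleotide reductase, had probe sets that went opposite ways. The one that represents it was at 11.72 in SupB15 and at 11.37 in each SupB15-MR array, a difference of -0.35 (adjusted p = 0.152). The other was at 10.65 in SupB15 and at 12.00 and 12.07 in SupB15-MR, a difference of 1.38 (adjusted p = 8.34e-06), and it is the brighter one where the mean over all 3 arrays decides. RRM1, the large subunit, differed by -0.73 and -0.10 on its probe sets. DUT, which removes dUTP, lay between -0.12 and 0.31 on 3 probe sets, and DTYMK, thymidylate kinase, between -0.38 and 0.87 on 5.

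The firing kinase and the proteins that protect the fork held 1 lower and 1 higher gene of 5. DBF4, the activating subunit of the CDC7 kinase, was at 10.74 in SupB15 and at 7.95 and 7.86 in SupB15-MR, a difference of -2.83 (standard error 0.20, adjusted p = 7.27e-10), on 1 probe set. CDC7, the kinase itself, differed by -0.38 and was not called. TIMELESS, which with TIPIN holds the helicase and polymerase together, was at 9.16 in SupB15 and at 10.35 and 10.26 in SupB15-MR, a difference of 1.14 (adjusted p = 7.65e-05), and 0.95 after centring of the arrays, under 2-fold. Its other, dim probe set was at 5.06, 5.26 and 5.06. TIPIN differed by 0.77 and was not called. CLSPN, the checkpoint mediator at the fork, was chosen after its values were seen, with 4 probe sets between 0.21 and 2.95. The largest of these differences came from a probe set at 4.93 in SupB15 and at 8.04 and 7.72 in SupB15-MR, while the brightest CLSPN probe set in SupB15 was at 6.74, 7.01 and 6.89.

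How far a gene's probe sets go together differs much across the group. There are 27 genes with 1 probe set and 29 with several, and in 30 genes, those with 1 probe set included, no probe set was 2-fold or more from SupB15. In 18 of the 29 the differences of the probe sets lay more than 2-fold from each other. Of the 17 called genes, 8 have 1 probe set and 9 have several. All probe sets were called the same way for 4 of these 9, GINS3, POLA2, TK1 and MCM8. In the other 5 (ORC5, MCM5, MCM10, FEN1 and TIMELESS) at least 1 further probe set was not called. No gene had called probe sets in opposite directions. Probe sets of 1 gene read different stretches of its transcripts, and their part in these disagreements was not tested.

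**Figure D4:**
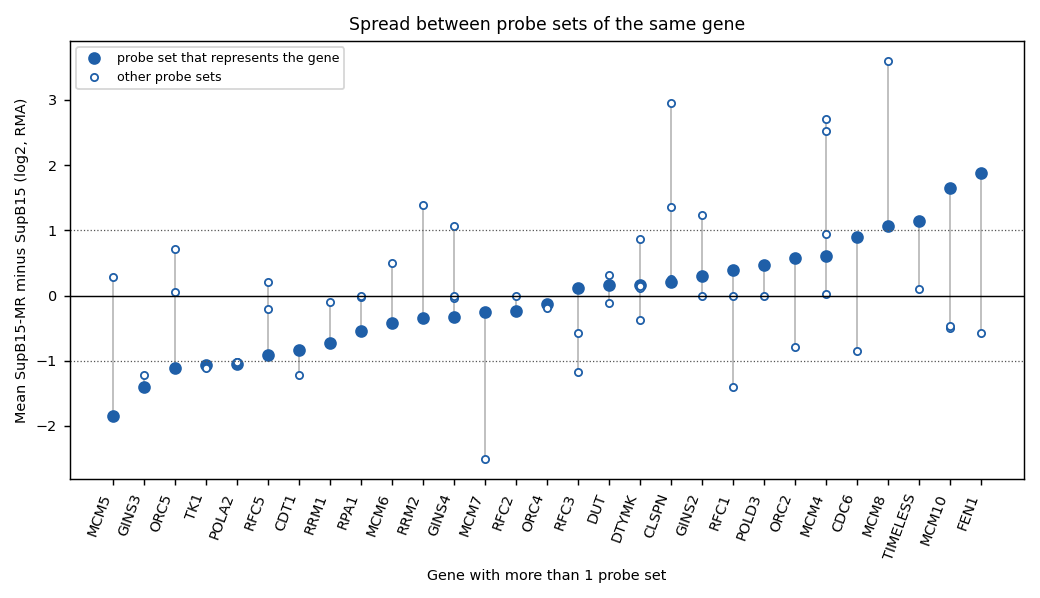
Mean SupB15-MR minus SupB15 difference (y axis, log2) of every probe set of the 29 members with several, ordered by the representative probe set (large filled circles; small open circles, other probe sets; dotted lines, 2-fold). GINS3, TK1 and POLA2 have all probe sets near -1 or below, at most 0.18 apart, and MCM8 has both above 1 but 2.53 apart; in 18 of the 29 genes the probe sets lie more than 2-fold from each other.

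The genes that surround replication were described from 4 further lists, of which no gene is a member. Their counts stand beside 15.8% higher and 16.3% lower over all genes tested. Of 22 regulators of S phase entry, 5 were higher and 3 were lower (median difference 0.07). The higher ones with the largest differences were CUL4B, a ubiquitin ligase scaffold, at 2.60 and E2F3, an activating E2F factor, at 2.45. The lower ones were led by DDB1, the adaptor of the same class of ligases, at -2.74 and E2F8, a repressive E2F factor, at -2.32. The differences of the CUL4B probe sets reached down to -0.50, and the other E2F3 probe set differed by 0.997. Of 23 other replisome and fork proteins tested, 6 were higher and 2 were lower (median 0.01). MCM9, the partner of MCM8, was at 5.74 in SupB15 and at 11.08 and 10.98 in SupB15-MR, a difference of 5.28, while another of its 3 probe sets differed by -0.55. MTBP, which acts in origin firing, differed by 4.03 on the representative probe set and by -2.06 on another. The lower ones were RNASEH2B, a subunit of RNase H2, at -2.26, with another probe set at 1.41, and MCMBP, which binds MCM subunits, at -1.02. The MCMBP probe sets ranged from -1.30 to -0.04.

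Chromatin assembly behind the fork had 4 higher, 4 lower and 4 uncalled genes among 12 (median 0.07). NASP, a histone chaperone, differed by 1.37, and all 3 of its probe sets were above 2-fold. ASF1A, another histone chaperone, differed by 2.37, with its second probe set at -0.37. DNMT1, which copies DNA methylation onto the new strand, was at 10.52 in SupB15 and at 8.31 in replicates 1 and 2 of SupB15-MR, a difference of -2.21. SLBP, which binds the stem-loop of histone mRNA, differed by -2.09. Of 34 other genes of nucleotide metabolism, 10 were higher and 8 were lower (median 0.11). Of all genes tested, 15.8% were higher and 16.3% lower. The guanine nucleotide branch split on the representative probe sets, with GMPS, which makes GMP, higher at 2.99, and IMPDH2 and IMPDH1, which catalyse the step before it, lower at -3.21 and -2.31. The 3 probe sets of GMPS differed by 0.59 to 2.99, and IMPDH2 and IMPDH1 have 1 probe set each. SHMT1, which provides folate-bound carbon units, differed by 3.35 on the representative probe set and by 0 on the other. The medians of these 4 lists lay between 0.01 and 0.11, against -0.18 for the members. That of the members ran from -0.37 to -0.0725 over the alternatives above other than centring, which lowers members and lists equally. The difference between the lists was not tested.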

How the data were processed

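Total RNA of 3 cultures was amplified with the NuGEN Ovation system and hybridised to Affymetrix arrays. The deposited values are log2 expression values that the authors made with RMA; the array version is named in more than 1 way, and its 54675 probe sets were named through the platform table (41097 with 1 gene, 1801 with several, 11777 with none; 43 symbols updated). Precision is limited by the number of arrays, which carry no read depth. The arrays of SupB15 cells in conditioned medium were not analysed here. A probe set was removed (8641 in all) when none of its 3 values exceeded 3.47, the 20th percentile over the whole table. SupB15-MR minus SupB15 was tested in R 4.3.3 by limma 3.58.1 (two-sided, 1 residual degree of freedom) with Benjamini-Hochberg adjustment over 46034 probe sets. The variance prior came from probe sets whose SupB15-MR values differ (standard deviation 0.169 on 17.1 degrees of freedom), because 18289 of those kept have identical values. The fit was tested on simulated data. The members and lists were chosen with earlier results of these data known. Genes given in every array had the representative probe set, and 1 more where there are several, 2-fold or more from SupB15 in replicates 1 and 2, or were among the 3 largest differences of each direction, or were PCNA, MCM2, RRM2, TK1, GMNN or CDC6; of the other lists at most 2 called genes for each direction are named. The rule also named members whose probe sets were 2-fold apart in opposite directions, of which there were 0. Alternatives were centring, the usual prior, a trended prior, an ANOVA of each probe set, other filters, 1.5-fold, other representative probe sets and leaving out each SupB15-MR array. Promoter windows came from RefSeq (GRCh38.p14).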

Additional observations from a re-analysis of the deposited data

How the results depend on the processing

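The counts of calls depended on the test. With the usual limma prior over all probe sets (standard deviation 0.00102 on 0.313 degrees of freedom), 4470 probe sets were lower over the whole array, and 11 member probe sets and 6 member genes were lower; MCM5, POLA2, POLD1, POLE3, PCNA, TK1 and DCK missed the threshold with unchanged differences. An ANOVA without moderation, void where the SupB15-MR values are identical, called 0 probe sets higher and 0 lower, members included (6778 of 27745 testable probe sets were 2-fold apart with an unadjusted p up to 0.05). A 1.5-fold threshold gave 20 higher and 28 lower member probe sets, and 9 higher and 18 lower member genes. Over the whole array it gave 13341 higher and 11101 lower probe sets of the 46034 tested. After centring of the arrays, 2 member genes were higher, the median member difference was -0.38, and MCM8 (0.87) and TIMELESS (0.95) were under 2-fold. Centring lowered the differences of all genes, members or not, by the same 0.19, and 7500 probe sets were then higher and 9001 lower over the whole array. The median difference was -0.37 with the probe set brightest in SupB15 and -0.0725 with the median over probe sets, which left 1 member gene higher. MCM10 turned to -0.50 and -0.47 under these choices, and RRM2 to 1.38 with the probe set brightest over 3 arrays. Without 1 SupB15-MR array the ranges were 8995 to 9051 probe sets higher and 7408 to 7517 lower, 11 to 13 and 18 to 21 for member probe sets, 4 to 5 and 12 to 13 for member genes, and -0.30 to -0.14 for the median; TK1 was at -0.89 without replicate 1. The trended prior and the other filters moved no count of these by over 1.5 times. The cause of these shifts was not tested. No paired analysis was possible because SupB15 has 1 array.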
